A study of Mus musculus with 3 samples.

Results

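Genes of the red cell programme were followed in blood stem cells: the erythroid transcription factor gene Klf1, 6 genes of the red cell membrane (Slc4a1, Ermap, Ank1, Epb42, Rhag and Rhd), the ring finger gene Trim10, and the carbonic anhydrase genes Car1 and Car2. These 10 genes were chosen by name, with earlier results of the same arrays known, and all 10 were among the 19938 genes measured by probe sets assigned to 1 gene. Each was measured by 1 probe set. The samples were 3 wild-type arrays of bone marrow cells from C57Bl/6 mice aged 6 to 10 weeks. The cells had been sorted as KLS SLAM, that is, lacking lineage markers, CD48 and CD41 and carrying c-Kit, Sca-1 and CD150, a gate that enriches for long-term repopulating stem cells. The labels give no treatment and no other genotype, and do not say whether an array holds 1 mouse or a pool, so the SD between arrays may be technical in part. No comparison between groups was possible, and since the genes were chosen with their values known, all that follows is description without a test.

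The red cell membrane is held in shape by a spectrin skeleton that is anchored to the band 3 anion exchanger, encoded by Slc4a1, through ankyrin, encoded by Ank1, and protein 4.2, encoded by Epb42. Band 3 also sits in a complex with the Rh proteins, and it exchanges the bicarbonate that carbonic anhydrases make from carbon dioxide. Klf1 binds CACCC boxes and drives many of these genes as erythroid precursors mature, a stage that lies far downstream of the stem cell.

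Chemosensory receptors (smell, pheromone and taste), 1231 genes with 15 pseudogenes among them, served as the measure of background, because marrow cells are not known to use them. A gene was called above the range when it was brighter than the 95th percentile of these receptors on all 3 arrays. Array 1 had its 95th percentile at 6.29 log2, array 2 at 5.98 and array 3 at 5.77. Array 1 therefore had the highest limit, and counts are also given without it. Probe sets differ in affinity, so each gene is read against the limit and not ranked against other genes, and a value below the limit does not show that a transcript is absent. Of the gate's own genes, Kit and Slamf1, which encodes CD150, were above the range at 10.01 ± 0.23 and 6.51 ± 0.13 log2 (SD, n = 3). Cd48, which the gate excludes, was at 4.61, 5.62 and 6.14 log2 on arrays 1, 2 and 3 and passed the limit on array 3 alone. Itga2b, which encodes the excluded CD41, was above the range at 6.37 ± 0.14 log2. Slamf1 and Itga2b cleared the limit of array 1 by 0.11 and 0.22 log2.

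Car2 stood clear of background on every array, Slc4a1 stood just above it, and the other 8 genes were not above it on all arrays. The 2 genes above the range were 2 of 10 members, beside 36.8% of all 19938 genes. Ermap and Car1 missed the range on array 1 alone, Ank1 and Rhd passed the limit on 1 array each, and Klf1, Epb42, Rhag and Trim10 were below the limit on every array. That last count of 4 of 10 compares with 42% of all genes. Array by array, 2, 5 and 5 of the 10 genes passed the limits of arrays 1, 2 and 3. The shares of all genes that did so were 39.3%, 49.1% and 55.2%. Without array 1 the genes above the range were Slc4a1, Ermap, Car1 and Car2, beside 46.9% of all genes. The median of the 10 genes was 5.44, 5.79 and 5.69 log2 on arrays 1, 2 and 3, and that of all genes was 5.96, 5.95 and 5.94 log2. In sorted bulk cells, fewer cells of a type and less RNA per cell cannot be told apart.

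**Figure D1:**
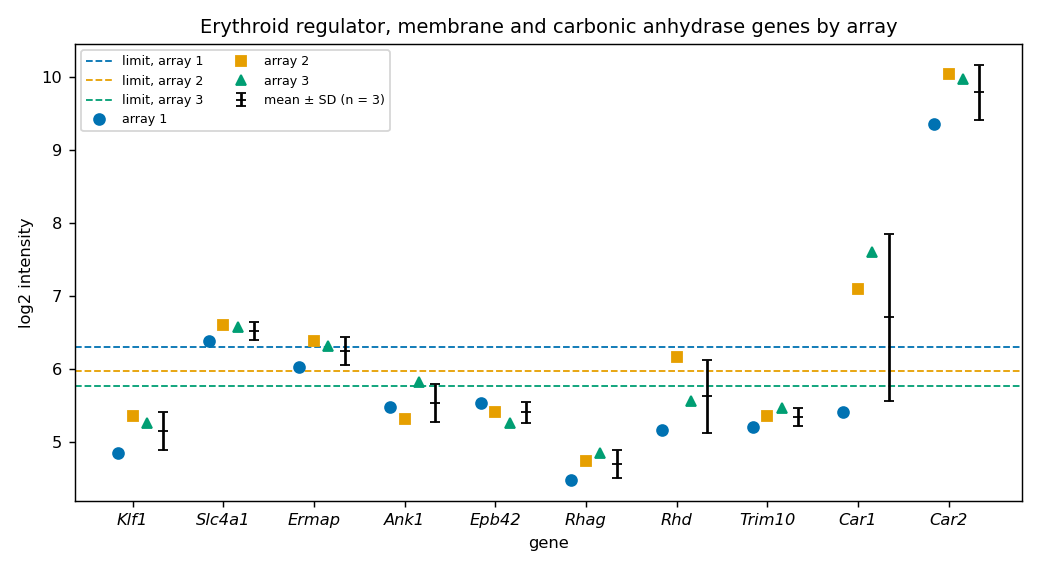
The log2 intensity of each of the 10 genes is plotted for arrays 1, 2 and 3 (circle, square, triangle), with the mean and SD (n = 3) beside them in black and the background limit of each array as a dashed line in that array's colour. Car2 lies far above all 3 limits, Slc4a1 just above its own limit on each array, and Car1 crosses from below to above.

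Klf1, the erythroid Krüppel-like factor, was below the limit on every array, at 4.85, 5.35 and 5.25 log2 on arrays 1, 2 and 3. Its mean was 5.15 ± 0.27 log2 (SD, n = 3). It exceeded 66.0% of the receptor genes on array 1, 83.6% on array 2 and 87.3% on array 3, so it lay in the upper part of the background range and not beyond it. Its margin over the limit was -1.45, -0.63 and -0.51 log2 on arrays 1, 2 and 3.

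Other transcription factors of the erythroid programme were mostly above the range. Of a list of 18 erythroid regulator and haem genes, 17 were measured and 12 were above it, beside the 36.8% of all genes. Its listed members Tal1 at 7.21 ± 0.07, Gfi1b at 7.46 ± 0.09 and Zfpm1, the partner of GATA factors known as FOG1, at 6.85 ± 0.16 log2 (SD, n = 3) were among them. So were Nfe2 at 8.98 ± 0.31, Bcl11a at 8.97 ± 0.20, and Lmo2 and Ldb1, which bridge the factors of one DNA-bound complex, at 9.83 ± 0.05 and 9.03 ± 0.11 log2. All of these factors also act in stem cells or other blood lineages. Several genes used mainly by erythroid and megakaryocytic cells were not above it on all arrays. Gata1 at 5.88 ± 0.13 and the erythropoietin receptor gene Epor at 5.90 ± 0.23 log2 missed the range on array 1, and Alas2, the first enzyme of erythroid haem synthesis, at 6.23 ± 0.52 log2 missed it on array 3. The transferrin receptor gene Tfrc was above it at 6.87 ± 0.38 log2, as was the erythroid gene Hemgn, named after its values were seen, at 7.10 ± 0.55 log2.

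Slc4a1, the band 3 anion exchanger, was the one membrane gene of the 10 above the range on all arrays. It was at 6.38, 6.60 and 6.58 log2 on arrays 1, 2 and 3, with a mean of 6.52 ± 0.12 (SD, n = 3). Its margins over the limits of arrays 1, 2 and 3 were 0.08, 0.63 and 0.81 log2. The margin on array 1 was smaller than the SD between arrays, so its call rests on a narrow distance there. At the 99th percentile of the receptor genes it passed on 1 array and dropped out of the count, which left Car2 alone, beside 17.4% of all genes.

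Ank1, which links band 3 to spectrin, was at 5.48, 5.31 and 5.82 log2 on arrays 1, 2 and 3. It passed the limit on array 3 by 0.06 log2 and was below it on the others. Epb42, which steadies the same junction, was at 5.54, 5.41 and 5.26 log2 and was below the limit on every array, with margins of -0.76, -0.56 and -0.51 log2. Of the 3 junction genes, then, Slc4a1 alone was above the range.

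Rhag, the Rh-associated ammonia channel without which Rh proteins do not reach the surface, was at 4.48, 4.74 and 4.85 log2 on arrays 1, 2 and 3. It exceeded 52.3%, 68.0% and 77.6% of the receptor genes on these arrays, a place well within background. Its partner Rhd, the Rh polypeptide gene of the mouse, was at 5.17, 6.16 and 5.56 log2. Rhd was above the limit on array 2 by 0.18 log2 and below it on arrays 1 and 3. Neither Rh gene was therefore above the range, and Rhd alone passed a limit.

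Ermap, a membrane protein of the immunoglobulin superfamily that carries the Scianna blood group in humans, was at 6.02, 6.38 and 6.32 log2 on arrays 1, 2 and 3. Its margins over the limits of these arrays were -0.27, 0.41 and 0.55 log2, so it missed on array 1. Trim10, needed for terminal erythroid differentiation of mouse cells in culture, was at 5.21, 5.35 and 5.46 log2, below the limit on every array. Its mean was 5.34 ± 0.12 log2 (SD, n = 3), among the smaller spreads of the 10 genes.

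RefSeq start-site windows of build GRCm38.p6, running from 250 bases before the start to 50 after it, were available for 6 of the 10 genes: Klf1, Ermap, Epb42, Rhag, Rhd and Trim10. The 4 shown are those of the regulator Klf1, of both Rh genes, and of Epb42, the member that was highest on array 1. Each is written 5′ to 3′ on the strand of its gene, and capitals mark CACCC or GATAA on either strand (GGGTG and TTATC on the other), which are the core letters bound by Klf1 and by GATA factors.
Klf1, chr8:84901732-84902031, plus strand: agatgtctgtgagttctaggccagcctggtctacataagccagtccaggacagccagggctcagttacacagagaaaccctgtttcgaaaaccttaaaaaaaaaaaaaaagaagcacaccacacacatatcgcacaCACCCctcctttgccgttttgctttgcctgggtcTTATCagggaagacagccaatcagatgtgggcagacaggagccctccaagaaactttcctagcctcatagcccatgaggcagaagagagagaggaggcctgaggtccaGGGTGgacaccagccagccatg
Rhag, chr17:40810899-40811198, plus strand: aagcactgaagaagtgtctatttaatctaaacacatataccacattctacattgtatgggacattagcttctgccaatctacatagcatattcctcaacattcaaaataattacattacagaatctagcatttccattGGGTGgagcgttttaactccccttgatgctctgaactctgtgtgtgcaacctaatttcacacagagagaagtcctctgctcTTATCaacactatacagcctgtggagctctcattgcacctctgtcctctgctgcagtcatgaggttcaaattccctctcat
Rhd, chr4:134864286-134864585, plus strand: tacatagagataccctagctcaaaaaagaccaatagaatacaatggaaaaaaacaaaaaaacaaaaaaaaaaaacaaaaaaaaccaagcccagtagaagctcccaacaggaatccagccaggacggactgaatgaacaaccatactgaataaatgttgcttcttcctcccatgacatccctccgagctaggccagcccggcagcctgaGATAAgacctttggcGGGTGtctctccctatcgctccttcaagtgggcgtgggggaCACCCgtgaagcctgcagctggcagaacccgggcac
Epb42, chr2:121036828-121037127, minus strand: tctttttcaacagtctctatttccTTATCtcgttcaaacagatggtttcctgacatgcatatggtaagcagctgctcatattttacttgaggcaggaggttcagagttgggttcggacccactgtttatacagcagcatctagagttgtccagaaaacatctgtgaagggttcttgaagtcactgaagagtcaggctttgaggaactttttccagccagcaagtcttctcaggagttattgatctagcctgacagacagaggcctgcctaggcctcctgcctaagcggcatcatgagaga
GATAA was present in 6 of the 6 windows, beside 25.4% of the 32851 windows in the RefSeq table. CACCC was present in 5 of 6, all but Epb42, beside 57.5% of all windows. Trim10 held 3 CACCC matches, Klf1 and Rhd each held 2, and Ermap and Rhag each held 1. These letters were thus present in Klf1, Rhag and Trim10, which were below the limit on every array. They were also present in Ermap, which missed it on array 1, and in Rhd, which passed it on array 2. A match describes sequence and not occupancy.

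Of the wider red cell membrane and skeleton, 23 of 26 listed genes were measured, and 13 of these were above the range, beside 36.8% of all genes. Many of the 13 are used by other cells as well. They included Add1, the ubiquitous adducin, at 7.72 ± 0.45, the actin-bundling dematin gene Dmtn at 6.48 ± 0.11, Mpp1 at 6.77 ± 0.40, the glycophorin C gene Gypc at 7.11 ± 0.37 and Xk at 6.52 ± 0.05 log2 (SD, n = 3). Cd47, the "don't eat me" signal, was at 10.99 ± 0.25 log2 over 2 probe sets. Tpm3 at 8.76 ± 0.21 log2 over 4 probe sets and the housekeeping actin gene Actb were also among them. Some of these calls were narrow. Mpp1 cleared the limit of array 1 by 0.03 log2, and Dmtn passed the 99th percentile of the receptor genes on 0 arrays. Another 5 missed the range on 1 array, among them the erythroid beta spectrin gene Sptb at 6.06 ± 0.09, the tropomodulin gene Tmod1 at 6.11 ± 0.06, the stomatin gene Stom at 6.21 ± 0.23 and the Lutheran gene Bcam at 6.15 ± 0.08 log2. In these 4 named genes the array missed was array 1, whose limit was passed by 39.3% of all genes, the lowest share of the 3 arrays.

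**Figure D2:**
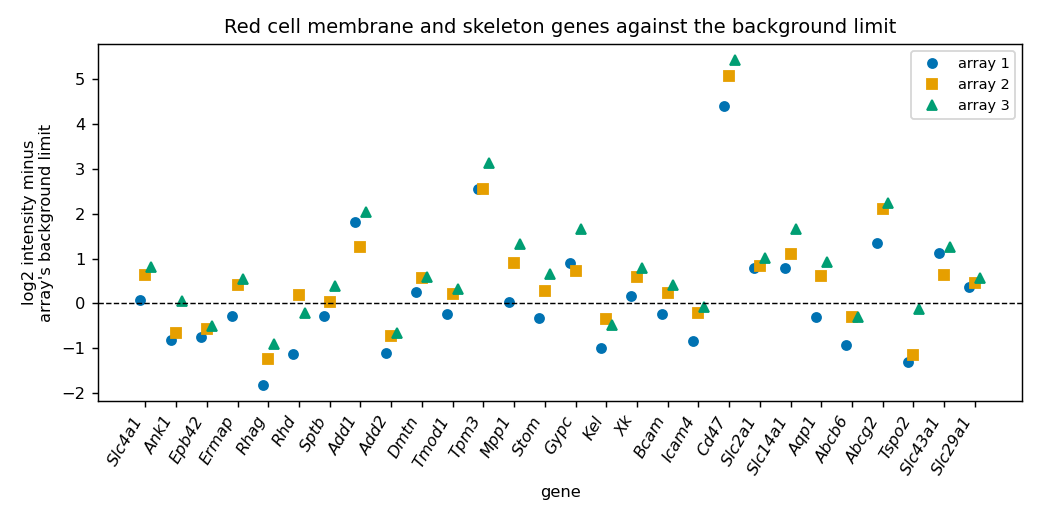
The log2 intensity minus the background limit of the same array is plotted for the 6 membrane genes (left) and for the other measured red cell membrane and skeleton genes except Actb, with 1 symbol per array and the limit at the dashed line. Slc4a1 is the only one of the 6 with all 3 symbols above the line, while Rhag and Epb42 have all 3 below it.

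Car2, the fast cytosolic carbonic anhydrase II, was the one gene of the 10 far beyond background, at 9.35, 10.04 and 9.98 log2 on arrays 1, 2 and 3. In linear intensity these were 654, 1050 and 1008, with limits of 78.5, 63.0 and 54.4. Its mean was 9.79 ± 0.38 log2 (SD, n = 3), and it exceeded every receptor gene on every array. The margin over the limit was 3.06, 4.06 and 4.21 log2, several times the SD between arrays. Carbonic anhydrase II is also used by cells other than red cells, such as osteoclasts. Of 6 osteoclast markers 0 were above the range and 5 were below the limit on every array, beside 36.8% and 42% of all genes. Among the 5, Acp5 and Ctsk were at 5.46 ± 0.07 and 4.45 ± 0.31 log2. The other marker, Mmp9, was at 5.60, 6.32 and 6.38 log2 on arrays 1, 2 and 3 and missed the range on array 1. The summed intensity of the 6 markers was 206, 253 and 248 on arrays 1, 2 and 3. The part of other cells in the values of Car2 was not tested.

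Car1, carbonic anhydrase I, the abundant red cell isozyme, had the widest spread of the 10 genes. Arrays 1, 2 and 3 read 5.41, 7.10 and 7.60 log2, which are intensities of 42.6, 137 and 194. Array 1 was low and arrays 2 and 3 were high. Set against the limits, its margins on arrays 1, 2 and 3 were -0.88, 1.12 and 1.83 log2. The readings spanned 2.19 log2, but the lowest was not above background, so no fold change is given. The mean of 6.70 ± 1.15 log2 (SD, n = 3) therefore describes none of the 3 arrays well.

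The other carbonic anhydrase genes were almost all at background. Of the 14 measured, 1 was above the range and 12 were below the limit on every array, beside 36.8% and 42% of all genes. The exception, Car11, a carbonic anhydrase-related gene without catalytic activity, was at 6.30 ± 0.31 log2 (SD, n = 3). Car11 passed the 99th percentile of the receptor genes on 0 arrays. In the RefSeq gene table Car1 lies between Car13 and Car3 in the order of protein-coding genes, and Car3 lies next to Car2. These neighbours, singled out after their values were seen, differed from Car2 in their place against the limit. Car13 was at 5.26 ± 0.07 log2 and below the limit on every array, and the muscle isozyme gene Car3 was at 5.93, 5.35 and 6.09 log2 and passed it on array 3 alone.

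**Figure D3:**
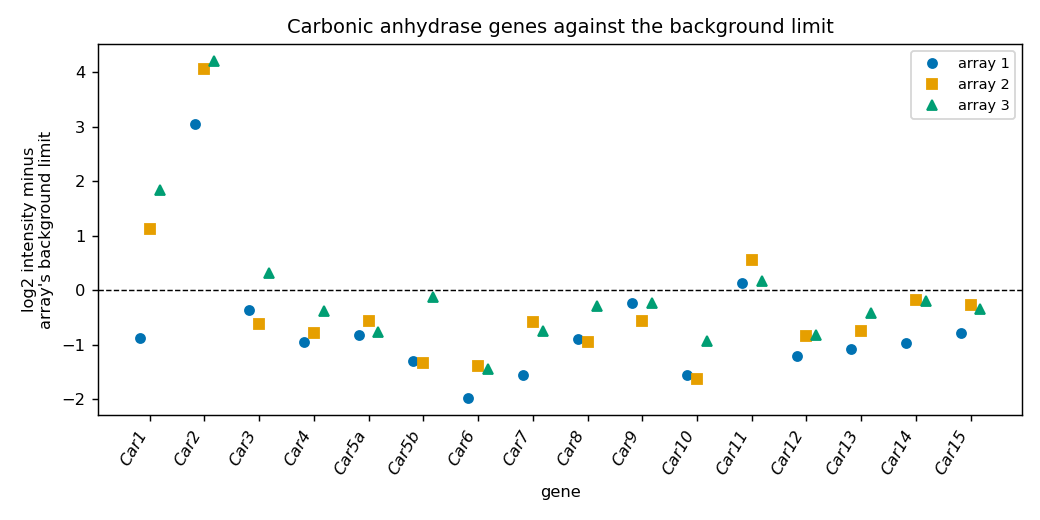
The log2 intensity minus the background limit of the same array is plotted for Car1, Car2 and the 14 other carbonic anhydrase genes, with 1 symbol per array and the limit at the dashed line. Car2 has all 3 symbols at least 3.06 log2 above the line, Car1 has 1 below and 2 above, and Car11 is the only other gene with all 3 above.

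Paralogues of the remaining members were also examined. Of 27 listed, 26 were measured, 5 were above the range and 14 were below the limit on every array, against the same 36.8% and 42% of all genes. The 5 were Slc4a9 at 6.33 ± 0.04 and the Krüppel-like factor genes Klf2, Klf3, Klf6 and Klf12 at 7.23 ± 0.15, 7.19 ± 0.17, 7.68 ± 0.17 and 7.07 ± 0.14 log2 (SD, n = 3). Slc4a2, the widely used anion exchanger of other cells, was at 6.04 ± 0.08 log2 and missed the range on array 1. The non-erythroid ankyrin genes Ank2 and Ank3 and the non-erythroid Rh glycoprotein genes Rhbg and Rhcg were singled out as the nearest relatives of Ank1 and Rhag, and all 4 were below the limit on every array.

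Array 1 gave the lowest value for 8 of the 10 genes, beside 34.1% of all genes. The exceptions were Ank1, lowest on array 2, and Epb42, highest on array 1. Among the 16432 genes whose mean level lay within the range of the 10, the share lowest on array 1 was 34.7%. The count remained 8 of 10 after quantile normalization and after centring each array on its median, where 42.7% and 43.1% of all genes were lowest on array 1. Of these 8, Slc4a1 and Car2 alone were above the limit on array 1, and array 2 exceeded array 1 by 0.23 log2 for Slc4a1 and by 0.68 log2 for Car2. The array 1 values of the other members were not above background. For Car1 the order sets such a reading against values 1.12 and 1.83 log2 above the limits of arrays 2 and 3. Ermap exceeded the limits of those arrays by 0.41 and 0.55 log2. For the rest, the order of the arrays compares readings at or near background.

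**Figure D4:**
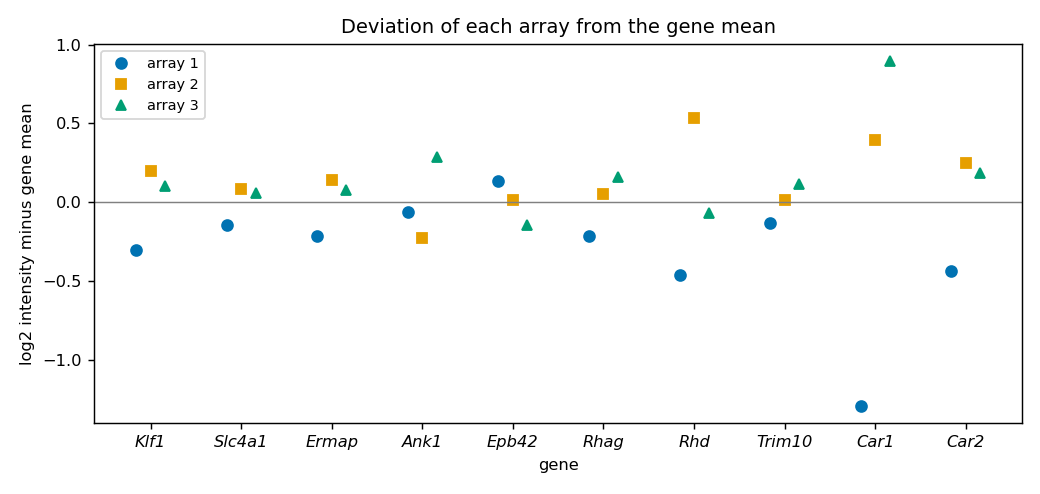
The deviation of each array from the mean of the 3 arrays is plotted in log2 for each of the 10 genes, with 1 symbol per array. The array 1 circle is the lowest symbol for 8 genes, and Car1 has the widest separation, with 2.19 log2 between array 3 and array 1.

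Markers of other cells also differed between the arrays. Of all genes, 36.8% were above the range and 34.1% were lowest on array 1. Of the 8 granulocyte markers, 7 were above the range and 7 were lowest on array 1. Their summed intensity was 9179 on array 1, 15537 on array 2 and 14168 on array 3, most of it S100a8 and S100a9. The exception to that order was Mpo, highest on array 1, at 312, 185 and 236 on arrays 1, 2 and 3. The 6 stem cell markers, all above the range, summed to 3813, 5119 and 4584, and 4 of them were lowest on array 1. Of the 8 late erythroid markers 4 were measured, 2 of them lowest on array 1, and their sum was 368, 361 and 481. Within it Alas2 was highest on array 1 and Hemgn on array 3. The 5 measured megakaryocyte and platelet markers, 4 of them above the range, summed to 470, 422 and 574, and the 6 macrophage and monocyte markers, 2 of them above it, to 865, 1530 and 1083, most of it Lyz2 at 534, 1228 and 730. The 10 genes themselves, whose sum is mostly Car2, gave 1060, 1630 and 1630. The part of these marker levels in the values of Car1 and the other members was not tested.

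Most of the 10 genes differed little between arrays. The median SD of the 10 genes was 0.23 log2, beside 0.22 log2 for all genes, which corresponds to 1.17-fold. The count spanning more than 1 log2 between arrays was 1 of 10, Car1, beside 10.5% of all genes and 11.1% of genes in the same range of levels. Rhd lay just under that threshold at 0.99 log2, and passed it after quantile normalization at 1.10 log2 and after centring at 1.05 log2. The smallest span was that of Slc4a1, at 0.23 log2.

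**Figure D5:**
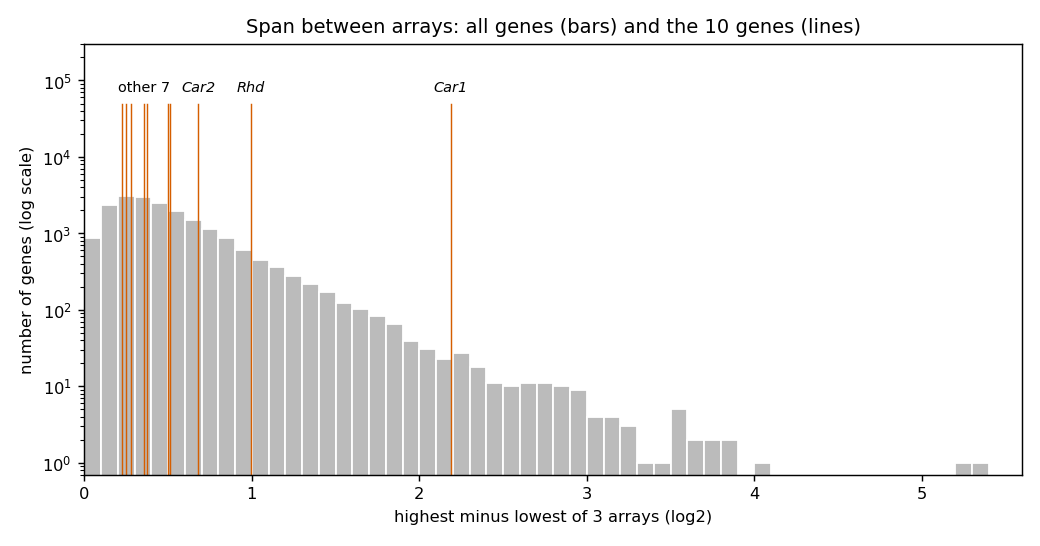
Bars count all 19938 genes by the difference between their highest and lowest array in log2, on a logarithmic vertical axis, and vertical lines mark the 10 genes. Car1 at 2.19 log2 stands in the thin upper tail, Rhd lies at 0.99 log2, Car2 at 0.68 log2 and the other 7 at 0.51 log2 or less.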

How the data were processed

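Gene expression was measured on 3 single-colour arrays of sorted wild-type cells. The labels' protocols describe column purification of the RNA, amplification and a biotin label. The deposited values are intensities on a linear scale. According to the submitters' processing notes the authors used Affymetrix Expression Console with RMA; its version, and which arrays entered the run, are not stated in the labels. RMA gives arrays run together one distribution, which removes most array-wide shifts. The values ran from 2.82 to 18384, so log2 was taken with no pseudocount.

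Of 35554 probe sets, 21789 named 1 gene in the platform annotation, and 1621 that named several were left out. Log2 values of probe sets of a gene were averaged, giving 19938 genes. All 3 sample columns were used. The 10 genes, the related gene lists and the marker lists were chosen with earlier results of these data known. The text names all 10 genes and the listed relatives above the range, up to 8 per list in listed order. It also names relatives missing the range on 1 array, up to 4 per list, though of such paralogues only Slc4a2. Hemgn, Car3, Car13, Ank2, Ank3, Rhbg and Rhcg are named outside this rule. No test was made, because there is 1 group. The number of arrays limits the precision. Python 3.11.15, pandas 2.3.3 and numpy 2.4.6 were used. Alternatives were another percentile, probe set summary, normalisation and averaging scale, and leaving out each array.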

Additional observations from a re-analysis of the deposited data

How the results depend on the processing

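The count of genes above the background range was 1 of 10 at the 99th percentile of the receptor genes, beside 17.4% of all genes. The limit there is higher by construction. Centring, quantile normalization and the brightest probe set could hardly change the count of 2 of 10 in the report, since the limit comes from the same array, order within an array is kept and each gene has 1 probe set. Leaving out 1 array gave 2 to 4 of 10, beside 37.0% to 46.9% of all genes. Both were highest without array 1, when Ermap and Car1 joined Slc4a1 and Car2. The count spanning over 1 log2 was 2 of 10 after quantile normalization and 2 of 10 after centring, since Rhd joined Car1. The shares of all genes there were 9.7% and 10.9%. With 1 array left out it was 0 to 1 of 10, the lowest without array 1, beside 5.0% to 5.2% of all genes. A span over 2 arrays cannot exceed that over 3, so lower counts follow by construction. The median level stayed within the spread between arrays, from 5.52 to 5.71 log2 with 1 array left out, while centring and the brightest probe set cannot move it. Under quantile normalization and averaging of linear intensities, each gene's mean stayed within its SD in 20 of 20 recomputations. The largest moves were those of Car1, from 6.70 log2 to 6.67 and 6.96 log2 in that order. Both settings reuse the same 3 readings and could hardly move a mean by more than its SD, so this count says little about robustness. The counts lowest on array 1 and their alternatives were chosen after seeing the data. No paired analysis was possible because the labels give 1 group. Probe sets without detection calls limit what can be said of genes near the limit, and 3 arrays limit the precision of each mean.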
